A study of Mus musculus with 8 samples.

Results

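The genes described here are 10 factors of the piRNA pathway and transposon silencing, Mael, Piwil1, Piwil2, Piwil4, Gtsf1, Asz1, Tdrd1, Tdrd9, Tex15 and Mov10l1, out of 19937 mouse genes measured. They were chosen by name from knowledge of the pathway and with the shMKRN1 against shGFP differences of these same arrays already known, so those differences are given as a description, without a p-value, and support nothing. All 10 were found in the expression table, each with 1 probe set (a group of array probes read as 1 value) that carries 1 gene symbol. Total RNA came from R1 cells, a mouse embryonic stem cell line labelled male and 129X1 x 129S1, grown on gelatin with LIF and 15% serum. Every culture was transfected with 2 µg of a pLKO.1 plasmid and kept in 2 µg/mL puromycin for 4 days, up to lysis on day 6 after transfection. The 4 shGFP cultures (arrays 1, 3, 5 and 7) received a hairpin that targets GFP, which mouse cells lack, and the 4 shMKRN1 cultures (arrays 2, 4, 6 and 8) a hairpin against Mkrn1, which encodes a RING ubiquitin ligase that binds RNA. A single hairpin sequence and a single cell line represent the knockdown, and the hairpin was delivered transiently to a population. Nothing in the labels says whether the 4 cultures of a group were transfected separately, so each SE and p-value reflects variation among these cultures that could be technical.

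piRNAs are small RNAs that guide PIWI proteins, the germ line branch of the Argonaute family, to transcripts of transposons. Their precursors are unwound and cut near mitochondria, loaded and trimmed in cytoplasmic granules called nuage, and amplified there by PIWI proteins that slice transposon RNA. In fetal male germ cells of the mouse a nuclear PIWI protein then directs DNA methylation to young transposon copies. Most of these genes are known for expression in testis, and embryonic stem cells hold transposons silent largely by histone and DNA methylation.

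The sequence given for the Mkrn1 hairpin, 21 bases long, is shown because it defines the perturbation.
shMKRN1 hairpin: gcgagatgttgcttatgcttt

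Mkrn1 itself was read first, as a check of the labels. Its log2 level was 10.45, 10.45, 10.51 and 10.34 in shGFP arrays 1, 3, 5 and 7 and 9.81, 9.81, 9.86 and 9.88 in shMKRN1 arrays 2, 4, 6 and 8. The groups did not overlap, and Mkrn1 was reduced to 66.2% of its control level (95% confidence interval 61% to 71.7%; limma adjusted p = 0.000767; exact two-sided permutation p = 0.0286, the smallest that 70 assignments allow). The median log2 value of an array was 7.14 to 7.24. On the leading principal component shGFP 7 stood apart, with a score of 23.2 against -15.2 to 7.46 for the other 7 arrays. shMKRN1 8, at 7.46, was the highest of its own group, and across all genes its deviations from the group mean correlated with those of shGFP 7 at 0.64, with genes not being independent replicates. The labels do not say whether consecutively numbered arrays were handled together. Of the 12 stem cell markers listed, 1 was past the limma threshold, Nanog, higher by 0.25 (SE 0.050; limma adjusted p = 0.0256). The marker with the next smallest p was the growth factor gene Fgf4 (0.13, SE 0.048; adjusted p = 0.164), and the summed linear level of the 12 was 15.48 to 15.53 in shGFP and 15.49 to 15.55 in shMKRN1 on the log2 scale. The call of Nanog was lost without shGFP 3 or without shMKRN1 2, 4 or 6 (adjusted p up to 0.0974). Of all genes, 3.66% were called higher.

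As a yardstick for background, 1190 olfactory and vomeronasal receptor genes, which stem cells are known not to use, were read on the same arrays. Of these, 95% had a mean log2 level below 6.50, and a value under that limit is described as within the background range. By this measure 7 of the 10 piRNA genes lay above background in shGFP and 9 of 10 in shMKRN1. Of all 19937 genes, 14038 lay above it in shGFP and 13990 in shMKRN1. Gtsf1 and Asz1 were within it in shGFP, and Tdrd9 had its mean within it in both groups. The shMKRN1 mean of Asz1 (6.501) was barely above the limit (6.499), with shMKRN1 2 and 8 below it.

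Mael, Gtsf1, Piwil4, Asz1 and Tex15 were the 5 of 10 whose difference passed the limma threshold (adjusted p of at most 0.05 over all 19937 genes), all of them higher in shMKRN1, and none of the 10 was lower past it. Across all genes 3.66% passed higher and 0.838% lower. For 6 of the 10, Piwil2 among them, every shMKRN1 array was above every shGFP array. The same held for 10.6% of all genes, and for 3.51% with shMKRN1 lower. The median difference of the 10 was 0.35 on the log2 scale, against 0.01 over all genes, and the shMKRN1 mean was the higher one for 8 of the 10. Since the 10 were chosen with this comparison known, nothing is read from these counts. Called and at least 1.5-fold higher were 4 of the 10 (Asz1, Mael, Gtsf1 and Piwil4). Over all 19937 genes, 106 were called and changed that much, counting both directions. Nothing is read from this count either.

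**Figure D1:**
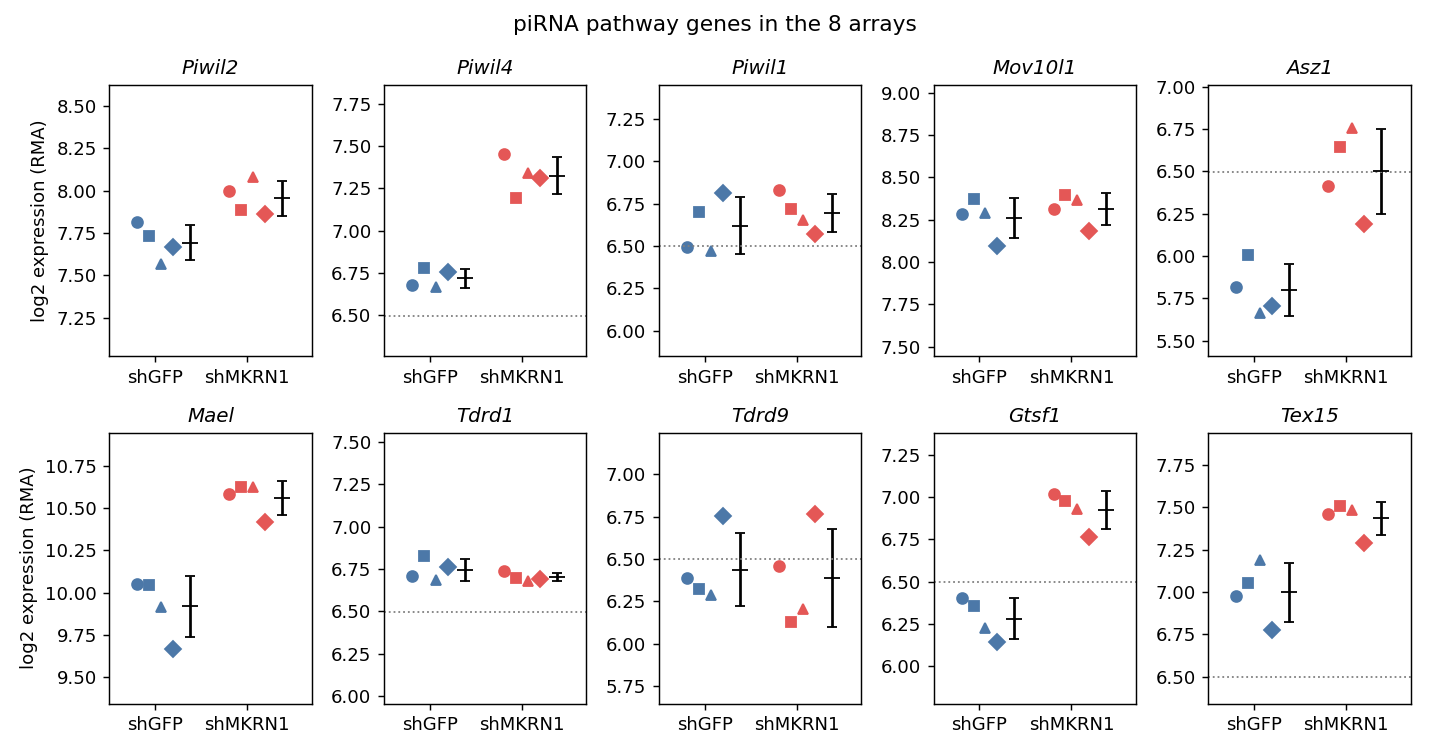
Log2 expression of each of the 10 genes (y axis, RMA values; every panel spans the same 1.6 log2 units) in the 4 shGFP arrays (blue; circle, square, triangle and diamond for arrays 1, 3, 5 and 7) and the 4 shMKRN1 arrays (red; the same symbols for arrays 2, 4, 6 and 8), with the mean and SD in black and the background limit of 6.50 as a dotted line where it falls in the panel. The groups are apart for Piwil2, Piwil4, Asz1, Mael, Gtsf1 and Tex15 and overlap for Piwil1, Mov10l1, Tdrd1 and Tdrd9.

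The 3 PIWI proteins differed among themselves. Piwil4 (MIWI2), the nuclear PIWI protein of fetal male germ cells that directs DNA methylation to transposons, lay at 6.68, 6.78, 6.67 and 6.75 in the shGFP arrays and at 7.45, 7.19, 7.34 and 7.31 in the shMKRN1 arrays. The highest shGFP value was 0.41 below the lowest shMKRN1 value, the widest gap of the 10 genes, and Piwil4 also had the largest difference relative to its SE (9.58). The log2 difference of 0.61 (SE 0.063) is 1.52-fold (95% confidence interval 1.38 to 1.68). Without any 1 array it stayed between 0.56 and 0.65. The shGFP values were not far above the background limit of 6.50, which leaves the size of the fold less certain.

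Piwil2 (MILI), the cytoplasmic PIWI protein that slices transposon RNA and feeds piRNAs to MIWI2, was measured at 7.81, 7.73, 7.57 and 7.66 in shGFP and at 8.0, 7.88, 8.08 and 7.86 in shMKRN1. The groups were apart by only 0.05, between shGFP 1 and shMKRN1 8. The log2 difference was 0.26 (SE 0.071; 95% confidence interval 0.10 to 0.42), and it was the largest among the genes that did not pass the threshold. Ranked by difference over SE, Piwil2 (3.69) came first of the genes outside the threshold and Tex15 (4.94) last of those inside. Piwil1 (MIWI), the PIWI protein of meiotic and postmeiotic male germ cells, had values of 6.49, 6.70, 6.47 and 6.81 in shGFP and 6.83, 6.72, 6.65 and 6.57 in shMKRN1. Its groups overlapped, with a difference of 0.07 (SE 0.088; 95% confidence interval -0.12 to 0.27), and 2 of its 4 shGFP arrays were at or below the background limit.

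Of the factors of precursor processing, the mitochondrial scaffold passed the threshold and the helicase did not. Asz1 (GASZ) sits in the outer mitochondrial membrane and organises nuage between mitochondria. It read 5.82, 6.01, 5.67 and 5.70 in shGFP and 6.41, 6.64, 6.76 and 6.19 in shMKRN1. All shGFP arrays and shMKRN1 2 and 8 were within the background range, and only shMKRN1 4 and 6 rose above it. The difference of 0.70 (SE 0.12), or 1.63-fold (1.35 to 1.96) was the largest of the 10, with an SD of 0.15 in shGFP and 0.25 in shMKRN1. It ranged from 0.62 without shMKRN1 6 to 0.81 without shMKRN1 8. Because both levels lie near background, where arrays are known to understate changes, the size of the fold is uncertain.

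Mov10l1, the RNA helicase that binds piRNA precursors and starts their processing, was at 8.28, 8.37, 8.29 and 8.10 in shGFP and 8.31, 8.40, 8.37 and 8.18 in shMKRN1. The groups overlapped almost wholly. The difference was 0.05 (SE 0.072; 95% confidence interval -0.11 to 0.21), and arrays shGFP 7 and shMKRN1 8 gave the lowest value of their groups.

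The nuage proteins also parted. Mael (Maelstrom), an HMG-box protein of nuage that mouse male germ cells need to silence LINE-1 elements, was at 10.05, 10.04, 9.91 and 9.67 in shGFP and at 10.58, 10.62, 10.62 and 10.41 in shMKRN1. It was clearly above background in all 8 arrays. The difference was 0.64 (SE 0.090), or 1.56-fold (1.36 to 1.79), with a gap of 0.36 between the groups. It was 0.56 without shGFP 7, the array with the lowest Mael value, and 0.61 with both shGFP 7 and shMKRN1 8 left out.

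Tdrd1, a multiple Tudor domain protein that binds methylated arginines of MILI, lay at 6.71, 6.83, 6.68 and 6.76 in shGFP and at 6.74, 6.70, 6.68 and 6.69 in shMKRN1. Its 8 values spanned the narrowest range of the 10 genes, and the difference was -0.04 (SE 0.050; 95% confidence interval -0.16 to 0.07). Tdrd9, a Tudor domain helicase that works with MIWI2, read 6.39, 6.32, 6.29 and 6.75 in shGFP and 6.46, 6.13, 6.20 and 6.77 in shMKRN1. The high value of each group was in shGFP 7 and in shMKRN1 8, which alone lay above background. The Tdrd9 difference was -0.05 (SE 0.15), and it had no stable sign. It turned to 0.06, 0.04 and 0.01 without shGFP 7, shMKRN1 4 and shMKRN1 6, and was -0.17 without shMKRN1 8.

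Gtsf1 and Tex15, the remaining genes, were both higher. Gtsf1, a small zinc finger protein that helps PIWI proteins cut their targets, went from 6.40, 6.36, 6.23 and 6.14 in shGFP to 7.02, 6.98, 6.93 and 6.76 in shMKRN1. Every shGFP array was within the background range and every shMKRN1 array above it. The difference of 0.64 (SE 0.076) corresponds to 1.56-fold (1.38 to 1.75) between the measured values. Since the control values were not above background, the size of this fold is uncertain too. Tex15, a nuclear protein that joins MIWI2 and is needed to methylate young transposons in fetal male germ cells, was at 6.98, 7.05, 7.19 and 6.77 in shGFP and at 7.46, 7.51, 7.48 and 7.29 in shMKRN1. Its groups were 0.10 apart, and the difference was 0.44 (SE 0.088), or 1.35-fold (1.18 to 1.55). Tex15 was the 1 called gene of the 10 whose call depended on single arrays: it was kept in 3 of 8 fits with an array left out, and lost without shGFP 1 or 3 or without shMKRN1 2, 4 or 6.

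**Figure D2:**
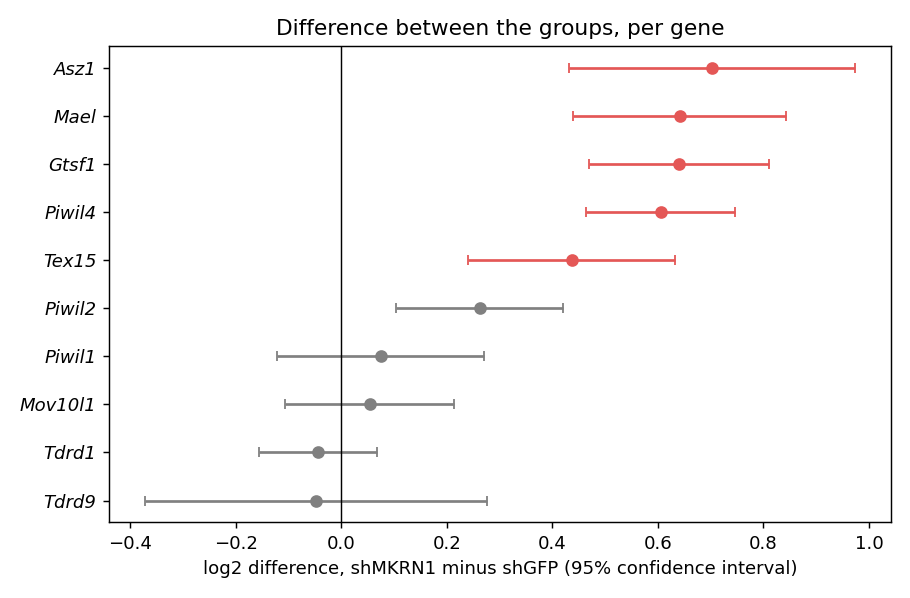
Log2 difference between the 4 shMKRN1 and the 4 shGFP arrays (x axis) for each of the 10 genes, with the limma estimate as a point and its 95% confidence interval as a bar. The 5 genes past the threshold (red) lie between 0.44 and 0.70, and the other 5 (grey) between -0.05 and 0.26.

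As a measure of likeness, the root mean square distance between the profiles of a pair of genes was taken over the 8 arrays, each value counted from the gene's shGFP mean. Mael and Gtsf1 were the closest pair of the 10, at 0.057, while Piwil1 and Tdrd1, whose groups overlapped, were 0.13 apart. The 5 called genes, which share an upward shift by their selection, differed from each other by up to 0.25. The mean deviation of the 10 genes was -0.05 to 0.07 in the shGFP arrays and 0.26 to 0.38 in the shMKRN1 arrays, lowest in shMKRN1 8. That array gave the lowest shMKRN1 value for 7 of the 10 genes. In the whole table the 5 genes with the profile closest to Asz1, the gene of the 10 with the largest difference, were Slc16a4 (distance 0.048), a solute carrier gene of the monocarboxylate transporter family, 1700019A02Rik (0.11), the phospholipase C gene Plcd4 (0.12), Aga (0.14), a lysosomal enzyme of glycoprotein breakdown, and Mael (0.14). The median distance of all genes from Asz1 was 0.54. The distance includes the group difference, for which Asz1 was taken, so a gene with little difference lies far from it by construction. The 5 nearest genes had differences of 0.64 to 0.74, and nothing beyond a similar difference is read from their distances. Slc16a4 was within the background range in both groups (5.40 and 6.04).

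In the rest of the piRNA pathway no gene passed the threshold. Of 27 further pathway genes listed, 24 were measured, and limma called 0 higher and 0 lower, while 4 higher and 2 lower had an unadjusted p under 0.05. Their median difference was -0.01, with a range from -0.28 to 0.32, and the shMKRN1 mean was the higher one for 11. In 3 of the 24 the groups did not overlap, all with shMKRN1 higher. Over all genes the groups were apart for 10.6% with shMKRN1 higher and 3.51% with shMKRN1 lower. Limma called 3.66% of all genes higher and 0.838% lower. For 24 genes a count of 0 is not far from those shares, so nothing is read from it. An unadjusted p under 0.05 was found for 2735 higher and 1153 lower of all 19937 genes. Closest to the threshold was Gpat2, a mitochondrial acyltransferase family protein that piRNA production needs (0.32, SE 0.079; limma adjusted p = 0.051). Gpat2 passed with quantile normalization, with median centring, with array weights, with a trended robust variance, with consecutive arrays as a block, without shGFP 7 and with shGFP 7 and shMKRN1 8 both left out. The other genes with the smallest p were the Tudor nuclease gene Snd1 (0.15, SE 0.046; adjusted p = 0.0964), the Tudor and RING finger gene Rnf17 (0.20, SE 0.063; adjusted p = 0.114) and Tdrkh (0.28, SE 0.096; adjusted p = 0.135), whose mitochondrial protein binds PIWI proteins during trimming. Ddx4, the nuage helicase that defines germ cells, was singled out after its value was seen. Its mean was 8.95 ± 0.19 for shGFP and 8.87 ± 0.18 for shMKRN1 (SD over 4 arrays; limma adjusted p = 0.782). No test compared the 10 genes with the other 24. The 10 were chosen with these differences known and the 24 are further genes of the same pathway, so a contrast between them is partly set by that choice.

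Among genes that hold transposons silent through chromatin or outside the piRNA pathway, 2 of 31 measured were called higher by limma and none lower, and 3 higher and 3 lower had an unadjusted p under 0.05. The groups did not overlap for 4 with shMKRN1 higher and for 5 with shMKRN1 lower. Over all genes 3.66% were called higher and 0.838% lower, and the groups were apart for 10.6% and 3.51% in those directions. An unadjusted p under 0.05 was found for 2735 higher and 1153 lower of all 19937 genes. Dnmt3a, a de novo DNA methyltransferase, went from 9.61 ± 0.049 to 9.86 ± 0.029 (mean and SD over 4 arrays), a rise of 0.25 (SE 0.048; limma adjusted p = 0.0191). Tex19.1, a gene of pluripotent cells, placenta and germ line whose loss raises transposon transcripts in mice, went from 7.95 ± 0.090 to 8.33 ± 0.14 (0.39, SE 0.078; limma adjusted p = 0.0246). The call of Dnmt3a was lost with quantile normalization and without shGFP 1 or 3 or shMKRN1 2, 4 or 6 (adjusted p up to 0.0633 without an array). That of Tex19.1 was lost without shGFP 3 or 5 or shMKRN1 2, 4 or 6 (up to 0.082). The median of the 31 was -0.01, and the shMKRN1 mean was the higher one for 13. Next by p were Zcchc3, which restrains LINE-1 elements (-0.17, SE 0.047; adjusted p = 0.0768), and the histone demethylase gene Kdm1a (0.15, SE 0.045; adjusted p = 0.103). The 4 Argonaute genes of the AGO class, the microRNA-binding relatives of PIWI proteins, had no call (unadjusted p under 0.05 in 0 of 4). Their differences were -0.13 for Ago4, which was within the background range, -0.10 for Ago3, 0.04 for Ago2 and -0.02 for Ago1, which turned to 0.0050 with median centring (limma adjusted p 0.371 to 0.866).

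**Figure D3:**
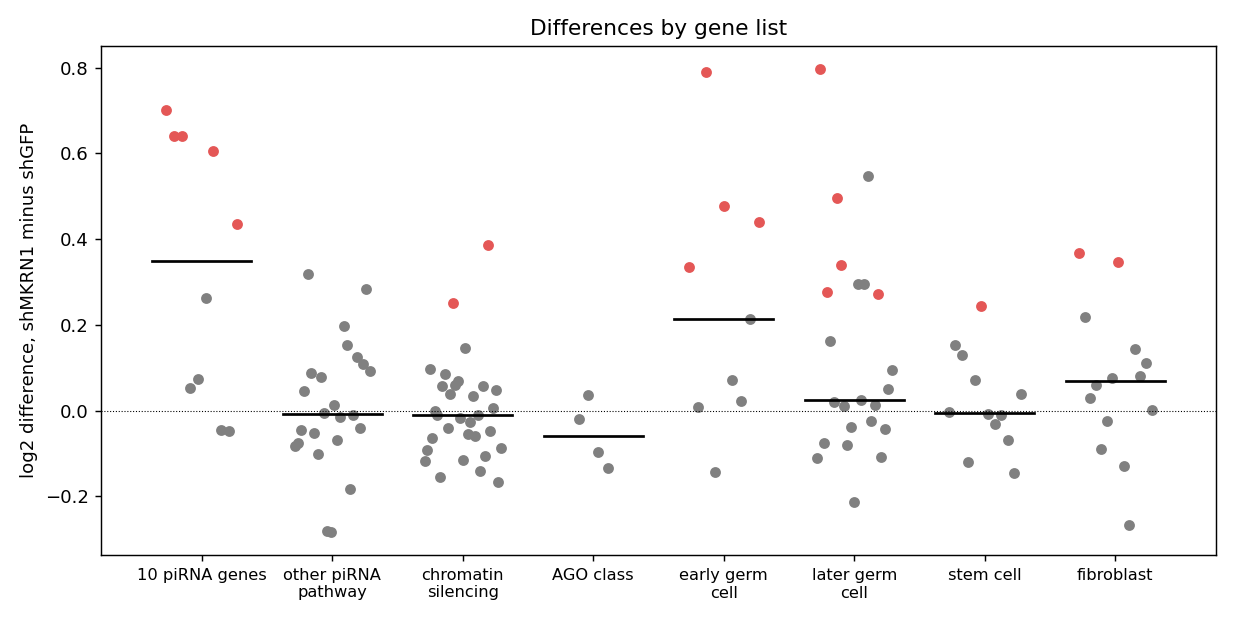
Log2 difference between shMKRN1 and shGFP (y axis) for every measured gene of each list (x axis), red where the gene passed the limma threshold and grey where it did not, with the median of the list as a black line. The 10 piRNA genes have a median of 0.35, and the 24 other genes of the pathway and the 31 chromatin silencing genes of -0.01 each. The 10 were chosen with these differences known, so nothing is read from the contrast of medians.

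Germ cell markers were also among the genes called higher. The marker lists were chosen with earlier results of these data known, so their counts and p-values are a description. Over all genes 3.66% were called higher and 0.838% lower. Of 9 early germ cell markers 4 were called higher and none lower, led by Kit, the receptor of stem cell factor (0.48, SE 0.067; limma adjusted p = 0.00513), and the alkaline phosphatase gene Alpl (0.34, SE 0.057; adjusted p = 0.0127). The call of Alpl was lost without shMKRN1 6 (adjusted p = 0.0501), and that of Kit held without each array. The summed level of the 9 on the log2 scale was 11.75 to 11.90 in shGFP and 12.05 to 12.16 in shMKRN1. Of 23 later germ cell markers 5 were called higher and none lower, led by the GDNF receptor gene Gfra1 (0.50, SE 0.056; adjusted p = 0.00201) and Dazl, whose protein binds RNA in germ cells (0.80, SE 0.11; limma adjusted p = 0.00513), and both calls held without each array. The other calls, named after their values were seen, were the early markers Tfap2c (0.44) and Dppa3 (0.79) and the later markers Dmc1 (0.28), Uchl1 (0.27) and Ldhc (0.34). Of these, Dmc1 alone kept its call without each array. The summed level of the 23 was 11.70 to 11.79 in shGFP and 11.91 to 12.02 in shMKRN1. Their median difference was 0.02, against 0.21 for the early markers, and 8 of the 23 had a lower shMKRN1 mean. The protamine gene Prm2, also named after its value was seen, had groups that did not overlap with shMKRN1 lower (-0.21, SE 0.062; limma adjusted p = 0.0859). Of the 23, 11 had an shGFP mean within the background range. Ddx4 is on this list and also among the 24 other piRNA pathway genes. Embryonic stem cells express several of the markers of both lists. The part of such cells in the piRNA gene values was not tested, and in RNA from a whole culture more cells of a type and more RNA per cell cannot be told apart. Of 14 measured fibroblast markers 2 were called higher and none lower, Pdgfrb (0.35, SE 0.077; adjusted p = 0.0342) and Col1a1 (0.37, SE 0.089; adjusted p = 0.0486), each kept in 1 of 8 fits with an array left out. The shMKRN1 mean was the higher one for 10 of the 14 and the lower one for 4, with a median difference of 0.07. Their summed level was 13.92 to 14.11 in shGFP and 13.92 to 14.10 in shMKRN1. That sum is carried mostly by the brightest, Fn1 and Vim (12.85 and 12.83 in shGFP), so it says little about the dimmer markers.

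Promoter sequences were read from the RefSeq table of GRCm38.p6, which gives 250 bases before and 50 after each annotated start. No source used here gives the build behind the array design, so the windows serve only to show sequence. They matched 8 of the 10 genes, with 11 windows. Many germ line promoters are rich in CpG and are kept silent in other cells by DNA methylation, and a repressor complex that holds E2F6, MGA and MAX sits on some of them in embryonic stem cells. Therefore 2 motifs, chosen after the expression values were seen, were searched as exact letters on both strands: TCCCGC, a core read by E2F proteins, and the E box CACGTG, read by MAX and its partners. No match of one overlapped a match of the other. The E box reads the same on both strands.

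The windows of 4 higher genes, Mael (chr1:166238695-166238994, minus strand), Gtsf1 (chr15:103430378-103430677, minus strand), Asz1 (chr6:18109012-18109311, minus strand) and Piwil4 (first of its 2 starts in the table, chr9:14740623-14740922, minus strand), and of 3 genes that did not pass, Piwil1 (chr5:128735996-128736295, plus strand), Tdrd9 (chr12:111971309-111971608, plus strand) and Mov10l1 (chr15:88982744-88983043, plus strand), are shown to set called and uncalled genes side by side. Each runs 5′ to 3′ along the gene, and capitals mark motif matches.
Mael: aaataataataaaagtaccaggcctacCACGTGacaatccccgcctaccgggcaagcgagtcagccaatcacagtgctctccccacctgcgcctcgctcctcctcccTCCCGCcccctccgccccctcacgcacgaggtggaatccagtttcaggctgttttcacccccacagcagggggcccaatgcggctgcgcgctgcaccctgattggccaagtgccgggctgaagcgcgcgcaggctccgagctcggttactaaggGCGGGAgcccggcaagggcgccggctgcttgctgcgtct
Gtsf1: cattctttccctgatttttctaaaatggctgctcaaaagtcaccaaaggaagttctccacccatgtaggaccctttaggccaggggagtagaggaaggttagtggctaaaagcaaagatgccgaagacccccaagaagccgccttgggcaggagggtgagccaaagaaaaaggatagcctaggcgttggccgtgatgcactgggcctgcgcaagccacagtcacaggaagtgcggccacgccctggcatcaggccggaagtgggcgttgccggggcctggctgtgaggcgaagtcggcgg
Asz1: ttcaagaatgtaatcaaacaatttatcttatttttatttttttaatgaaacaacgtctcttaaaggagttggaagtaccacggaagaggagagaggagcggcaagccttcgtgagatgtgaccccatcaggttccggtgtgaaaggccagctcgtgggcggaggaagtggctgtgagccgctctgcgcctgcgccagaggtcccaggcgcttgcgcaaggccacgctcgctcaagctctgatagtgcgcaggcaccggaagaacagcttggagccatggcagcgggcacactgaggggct
Piwil4: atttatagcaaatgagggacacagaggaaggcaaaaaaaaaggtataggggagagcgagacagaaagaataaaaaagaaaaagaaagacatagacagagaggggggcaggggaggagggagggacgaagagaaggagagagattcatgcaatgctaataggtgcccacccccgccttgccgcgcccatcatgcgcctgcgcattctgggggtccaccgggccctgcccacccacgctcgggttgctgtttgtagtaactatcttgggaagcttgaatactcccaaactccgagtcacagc
Piwil1: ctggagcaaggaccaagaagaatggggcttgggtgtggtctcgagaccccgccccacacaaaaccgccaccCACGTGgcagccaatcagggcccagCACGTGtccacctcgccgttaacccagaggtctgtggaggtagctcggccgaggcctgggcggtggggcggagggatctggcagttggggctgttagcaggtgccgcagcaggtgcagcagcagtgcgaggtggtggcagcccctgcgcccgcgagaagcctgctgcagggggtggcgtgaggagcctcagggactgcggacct
Tdrd9: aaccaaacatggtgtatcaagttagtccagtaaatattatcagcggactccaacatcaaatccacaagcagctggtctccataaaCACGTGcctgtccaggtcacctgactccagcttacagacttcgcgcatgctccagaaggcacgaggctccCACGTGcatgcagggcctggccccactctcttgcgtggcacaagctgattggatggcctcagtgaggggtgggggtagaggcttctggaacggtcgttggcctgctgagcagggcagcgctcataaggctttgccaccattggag
Mov10l1: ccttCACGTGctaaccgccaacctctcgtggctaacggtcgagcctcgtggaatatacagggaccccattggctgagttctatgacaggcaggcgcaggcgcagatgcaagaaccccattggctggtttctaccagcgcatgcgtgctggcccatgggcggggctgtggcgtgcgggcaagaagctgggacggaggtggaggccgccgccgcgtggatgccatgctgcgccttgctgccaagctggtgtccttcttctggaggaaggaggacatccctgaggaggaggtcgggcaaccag

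An E box was present in 6 of the 11 windows (54.5%), which belong to 5 of the 8 genes, against 7.15% of all 32841 windows in the table and 25.9% of the 27 windows of 19 other piRNA pathway genes. It was found in all 4 genes with a window that did not pass the threshold and in 1 of the 4 that were higher, Mael. Counting the annotated start as position 1, with position -1 before it, the E box began at -223 in Mael, at -179 and -154 in Piwil1, at -165 and -95 in Tdrd9 and at -246 in Mov10l1. In Tdrd1 it began at -11 in the first of 3 windows and at -77 in the second, which are the same site since these windows overlap. Mael alone of the 8 held the E2F core, at -143 and, on the opposite strand, at 12, and 20.0% of all windows hold it. No match was present in Gtsf1, Asz1 or either Piwil4 window, which says only that these letters are not in the window. CpG pairs numbered 24 in Mael, 17 in Asz1, 13 in Gtsf1 and 11 and 0 in the Piwil4 windows, a median of 13 for the called genes. They numbered 18 in Piwil1, 10 in Tdrd9, 20 in Mov10l1 and 20, 25 and 3 in the Tdrd1 windows, a median of 19 for the genes not called. Over all windows in the table the median was 7, and over the 11 windows of the 8 genes it was 17. The E box itself holds a CpG pair, so the share of all windows with an E box is not a like background. The part of CpG content in the E box share was not tested. Binding and methylation at these promoters were not measured on the arrays.

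**Figure D4:**
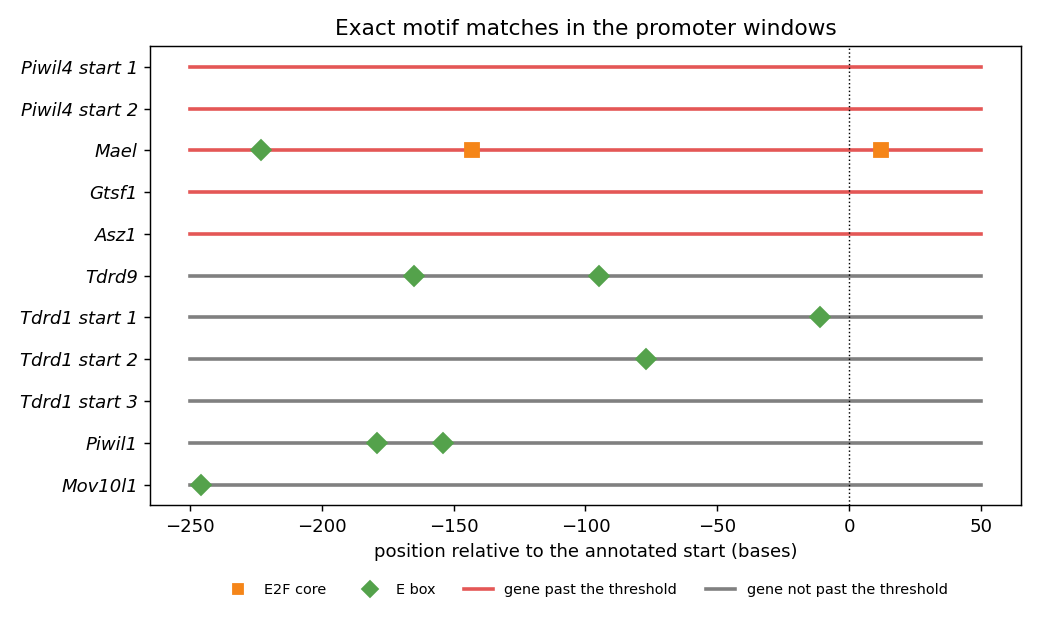
Position of exact matches to the E box (green diamonds) and to the E2F core (orange squares) relative to the annotated start (x axis, bases) in the 11 promoter windows of 8 genes (y axis), drawn red for genes past the expression threshold and grey for the others. The E box is in Tdrd9, Piwil1, Mov10l1 and 2 of the 3 Tdrd1 windows and, among the red windows, in Mael only.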

How the data were processed

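The deposited table holds log2 expression values of 34760 probe sets on 8 arrays, made by the authors with RMA per the submitters' processing notes (no version given). RMA subtracts background, equalises array distributions and summarises probes, so a change common to most genes is not visible and changes of dim genes are understated. Probe sets with 1 symbol in the platform annotation were used (21640; 1321 had several symbols and 11799 none), keeping the brightest per symbol, which gave 19937 genes with no filter on level. Groups follow the hairpin in the sample titles, 4 arrays each, and this number limits the precision. Group differences were fitted across all genes with limma 3.58.1 in R 4.3.3 (lmFit, eBayes, two-sided, Benjamini-Hochberg over all genes, threshold 0.05), and the procedure was tested on simulated data. Mkrn1 was also tested by exact permutation. Alternatives were 2 scalings, a filter on level, the mean of probe sets, array weights, a trended robust variance, each array left out, shGFP 7 with shMKRN1 8 left out, and a replicate block. The genes and lists were chosen with earlier results of these data known. Apart from the 10 genes and Mkrn1, genes named were those of each list past the threshold or with the smallest p (4 for pathway lists and 2 for marker lists), and the 5 nearest profiles. Promoters and motifs were read with Python 3.11.15.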

Additional observations from a re-analysis of the deposited data

Results flagged for a closer look

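In the groups of 4 arrays examined for the genes named, 2 of 86 held an array far from the others by Dixon's criterion, and chance alone marks about 1 in 20. Ago3 read 8.13 in shGFP 7, against 8.51 to 8.58 in the other shGFP arrays. Gfra1 read 8.71 in shMKRN1 2, against 8.85 to 8.86 in the other shMKRN1 arrays. None of the 10 piRNA genes was among them.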

How the results depend on the processing

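The difference of each of the 10 genes moved by less than the spread between replicates in all 153 recomputed values. Most of these could not have moved further, so the count is no evidence of stability. Leaving out 1 array shifts the mean of a group of 4 by less than its SD. The filter on level, the mean of probe sets, the trended robust variance and the block left each tested difference unchanged. The 2 scalings and array weights were free to move it more. Between 4 and 5 of the 10 passed without 1 array in turn, always including Mael, Gtsf1, Piwil4 and Asz1, and 5 passed with shGFP 7 and shMKRN1 8 both left out. Array weights and the trended robust variance each gave 6, adding Piwil2. With only genes above the median level, 3 of the 10 were tested and 2 passed, Mael and Piwil2, with a median of 0.26. Mkrn1 kept its call in every refit (-0.64 to -0.57). Counts over all genes depended on the settings: the filter on level gave 1285 higher and 310 lower, array weights 1933 and 824, and the trended robust variance 1225 and 324, and quantile normalization gave 290 lower. Without 1 array the counts were 256 to 650 higher and 52 to 230 lower, falling over 1.5 times without shGFP 1 or 3 or shMKRN1 2, 4 or 6. Among other piRNA pathway genes 1 was higher with quantile normalization, median centring or shGFP 7 and shMKRN1 8 left out, 2 with the filter or the trended robust variance, and 4, with 1 lower, with array weights. That count was 0 to 1 without 1 array. Among chromatin silencing genes quantile normalization gave 1 higher and 1 lower, the filter and array weights 2 lower each and the trended robust variance 3 lower, with 0 to 2 higher without 1 array. The causes were not tested. The groups share no replicate number and the labels pair no arrays, so a fit with consecutive arrays as a replicate block was added after seeing the data. Deviations of consecutive arrays correlated at -0.05 to 0.64, and only shGFP 7 was closest to its own neighbour. The block gave the same 5 of the 10 genes, 1059 genes higher and 387 lower in all, and 2 other piRNA pathway genes higher (Gpat2 and Tdrkh) and 1 lower (Nanos2). Signal near background limits Asz1, Gtsf1, Tdrd9 and Piwil1. The shGFP means of Piwil4 (6.72) and Tdrd1 (6.75) were also not far above the background limit of 6.50.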
